A study of Mus musculus with 2 samples.

Results

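The 10 genes described here govern how a cell takes up and uses glucose: Slc2a1, Slc2a4, Aspscr1, Trarg1, Tbc1d4, Hk2, Pfkfb3, Pgam1, Pdk4 and Pdha1. They were chosen by symbol, and all 10 were found among the 22620 genes of the deposited tables. Their transcripts were counted by single-nucleus RNA-seq of brown adipose tissue at 4 weeks of age, in 1 droplet library from Nfe2l1(f)-KO mice (labelled KO) and 1 from Flox mice (labelled Flox). The comparison addresses what loss of Nfe2l1, which encodes the transcription factor NFE2L1, does to this tissue. The sources used here do not give the meaning of (f), the Cre driver, whether Flox mice carry a Cre, the deleted part of the gene, the strain, or how many mice entered a library. Each genotype had a single library, so nothing below has a replicate check, no test between genotypes was possible, and values are set side by side. The 95% intervals of levels and ratios reflect the number of UMIs alone, not the spread between nuclei or mice. Those of shares of nuclei reflect the number of nuclei, taken as independent, and not the spread between mice.

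Glucose enters cells through transporters of the GLUT family. GLUT1, encoded by Slc2a1, sits at the cell surface in many cell types, whereas GLUT4, encoded by Slc2a4, is held in storage vesicles of adipocytes and muscle and moves to the surface after insulin. Inside the cell glucose is phosphorylated and split by glycolysis. The pyruvate made from it can enter the mitochondrial citric acid cycle through the pyruvate dehydrogenase complex. Brown adipose tissue is known for a high rate of glucose uptake when it is active.

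The promoters of members at least 1.5-fold apart between the libraries are shown first, as the upstream sequence these genes carry. RefSeq (GRCm38.p6) held a promoter for 8 of the 10 members, 11 windows in all, each running from 250 bases before to 50 bases after an annotated start. It gave none for Slc2a4 and Trarg1. Of the 3 windows of Aspscr1, that of the most upstream start is printed. The second held 10 GC boxes and a CCAAT box and the third none of the motifs searched. Capitals mark an E-box (CACGTG) or a GC box (GGGCGG or its complement CCGCCC), and the E-box of Aspscr1 begins 142 bases before the annotated start.
Aspscr1, chr11:120672723-120673022, plus strand: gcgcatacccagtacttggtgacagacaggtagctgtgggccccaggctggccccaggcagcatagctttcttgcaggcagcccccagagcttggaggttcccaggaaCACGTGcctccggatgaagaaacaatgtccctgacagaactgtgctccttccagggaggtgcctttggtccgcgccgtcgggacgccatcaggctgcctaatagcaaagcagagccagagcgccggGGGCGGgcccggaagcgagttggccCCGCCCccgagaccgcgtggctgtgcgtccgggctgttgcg
Pgam1, chr19:41911621-41911920, plus strand: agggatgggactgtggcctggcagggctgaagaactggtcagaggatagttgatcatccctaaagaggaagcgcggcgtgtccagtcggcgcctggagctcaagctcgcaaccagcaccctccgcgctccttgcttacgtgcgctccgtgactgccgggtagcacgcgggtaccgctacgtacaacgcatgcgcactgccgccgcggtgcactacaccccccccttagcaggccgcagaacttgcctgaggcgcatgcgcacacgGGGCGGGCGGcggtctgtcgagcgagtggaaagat
The capitals of Pgam1 are overlapping GC boxes after the RefSeq start that set its window. The GENCODE gene start given below, 41911923, lies past the end of this window, so by that annotation both boxes come before the start. The end of the window was not found in an annotated Pgam1 transcript. Over both strands, GC boxes were found in 8 of the 11 windows (35.7% of 32851 mouse promoters), the CCAAT box in 4 (37.4%), the E-box in 2, those of Aspscr1 and Pfkfb3 (7.15%), and the C/EBP motif TTGCNNAA in 1, that of Tbc1d4 (10.8%). The antioxidant response element TGACNNNGC, the motif known for factors of the NFE2L family, was in 0 of the 11 windows and in 12.4% of all promoters. These letters are a description of the windows and say nothing of binding.

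The library labelled KO held 13030 barcodes with 43080725 UMIs and the library labelled Flox 16145 barcodes with 46528077 UMIs. After filtering, 11570 and 13986 nuclei were kept, of which 8249 and 8897 were adipocyte-like. Adipocyte-like nuclei formed 4 clusters: cluster 1 (led by Kng1, Esrrg and Ppara, 63.2% of adipocyte-like nuclei in KO and 48.1% in Flox), cluster 2 (Gbp11 and Iigp1, 16.1% and 29.3%), cluster 3 (Fgf14, Kcnd2 and Rbfox1, 17.4% and 18.3%) and cluster 8 (Trhde, Slc7a10 and Retn, 3.22% and 4.24%). The 12 adipocyte markers summed to 19200 CPM in KO and 17900 CPM in Flox in these nuclei, with 0 markers absent. Ucp1, the uncoupling protein that defines brown adipocytes, had 31.4 CPM in KO and 35.4 CPM in Flox there, against 8.34 and 24.9 CPM in all other kept nuclei and 16.7 and 43.5 CPM in endothelial-like nuclei. The libraries shared 65 barcodes, 48 of them among kept nuclei. Nfe2l1 went against its label: the 4 clusters together had 313 CPM of it in KO and 131 CPM in Flox, a ratio of 2.39 (2.30 to 2.49). In all other kept nuclei its ratio was 1.13 (1.02 to 1.26), with 2.54 (1.41 to 5.03) in T/NK-like and 1.11 (0.927 to 1.32) in endothelial-like nuclei. Counts per gene do not show which exons the reads came from, so they cannot test the label. Every direction below rests on the labels as given. Mitochondrial UMIs were 1.28% of the adipocyte-like total in KO and 0.47% in Flox, and 10 skeletal muscle markers summed to 86.1 CPM in KO and 204 CPM in Flox in the same nuclei, with all 10 lower in KO. The part of either in the values below was not tested. CPM, the unit of every level here, is a gene's UMIs per 1000000 UMIs of the same nuclei, and each log2 ratio sets CPM in KO over CPM in Flox after adding 0.5 UMI.

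The GLUT4 gene was close in both libraries, and the GLUT1 gene was barely detected in adipocyte-like nuclei. Slc2a4 (chr11:69942539-69948188, mm10, minus strand) stood at 221 CPM in adipocyte-like nuclei labelled KO and at 199 CPM in those labelled Flox, a ratio of 1.11 (1.07 to 1.15). Over clusters 1, 2, 3 and 8 it lay between 196 and 240 CPM in KO and between 177 and 226 CPM in Flox, and the log2 ratio between -0.06 in cluster 8 and 0.21 in cluster 2. The KO and Flox ranges over the 4 clusters overlapped. Slc2a1 (chr4:119108711-119137983, mm10, plus strand) had 109 UMIs (3.71 CPM) in 8249 adipocyte-like nuclei of KO and 81 UMIs (2.88 CPM) in 8897 of Flox. No nucleus held more than 2 of them. The ratio was 1.29 (0.958 to 1.74), so no difference was detectable at this depth. With each nucleus thinned to 1000 UMIs its log2 ratio was 0.80, against 0.36 here.

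Across the tissue the transporters had separate homes. Skeletal muscle-like nuclei had the highest Slc2a4 level in each library, 422 CPM (336 to 524) in KO and 375 CPM (332 to 422) in Flox. Pericyte/smooth muscle-like nuclei had 195 CPM (155 to 242) in KO and 206 CPM (171 to 245) in Flox, a level whose interval overlapped that of its neighbours among the adipocyte-like clusters. Endothelial-like nuclei had 39.0 CPM in KO and 61.0 CPM in Flox, fibroblast/progenitor-like nuclei 36.9 and 48.5, and macrophage/monocyte-like nuclei 36.6 and 30.5. Adipoq, the adiponectin gene of adipocytes, stood at 73.8 CPM in KO and 102 CPM in Flox in pericyte/smooth muscle-like nuclei, against 99.9 and 137 CPM in endothelial-like nuclei. The part of free RNA from adipocytes or skeletal muscle in the Slc2a4 levels of these classes was not tested.

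Slc2a1 was concentrated in a small fibroblast/progenitor-like cluster, a pattern picked out after its values were seen. Cluster 14, with 21 nuclei in KO and 29 in Flox and led by Itgb4, Igfbp6, Sfrp5 and Tenm2, had 736 CPM (521 to 1010) of Slc2a1 in KO and 675 CPM (470 to 939) in Flox. It held 38 of the 59 Slc2a1 UMIs of its class in KO and 35 of 58 in Flox, in 13 and 17 nuclei, with at most 11 and 7 UMIs in 1 nucleus. The other fibroblast/progenitor-like clusters were far below it: cluster 5 had 6.26 CPM in KO and 5.11 CPM in Flox, and cluster 6 had 8.95 and 8.84. Endothelial-like nuclei came next among the larger classes, with 17.2 CPM (33 UMIs) in KO and 9.84 CPM (26 UMIs) in Flox, a ratio of 1.74 (1.01 to 3.04). All adipocyte-like nuclei together had 0.234 times the Slc2a1 level of the other nuclei in KO and 0.273 times in Flox.

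**Figure D1:**
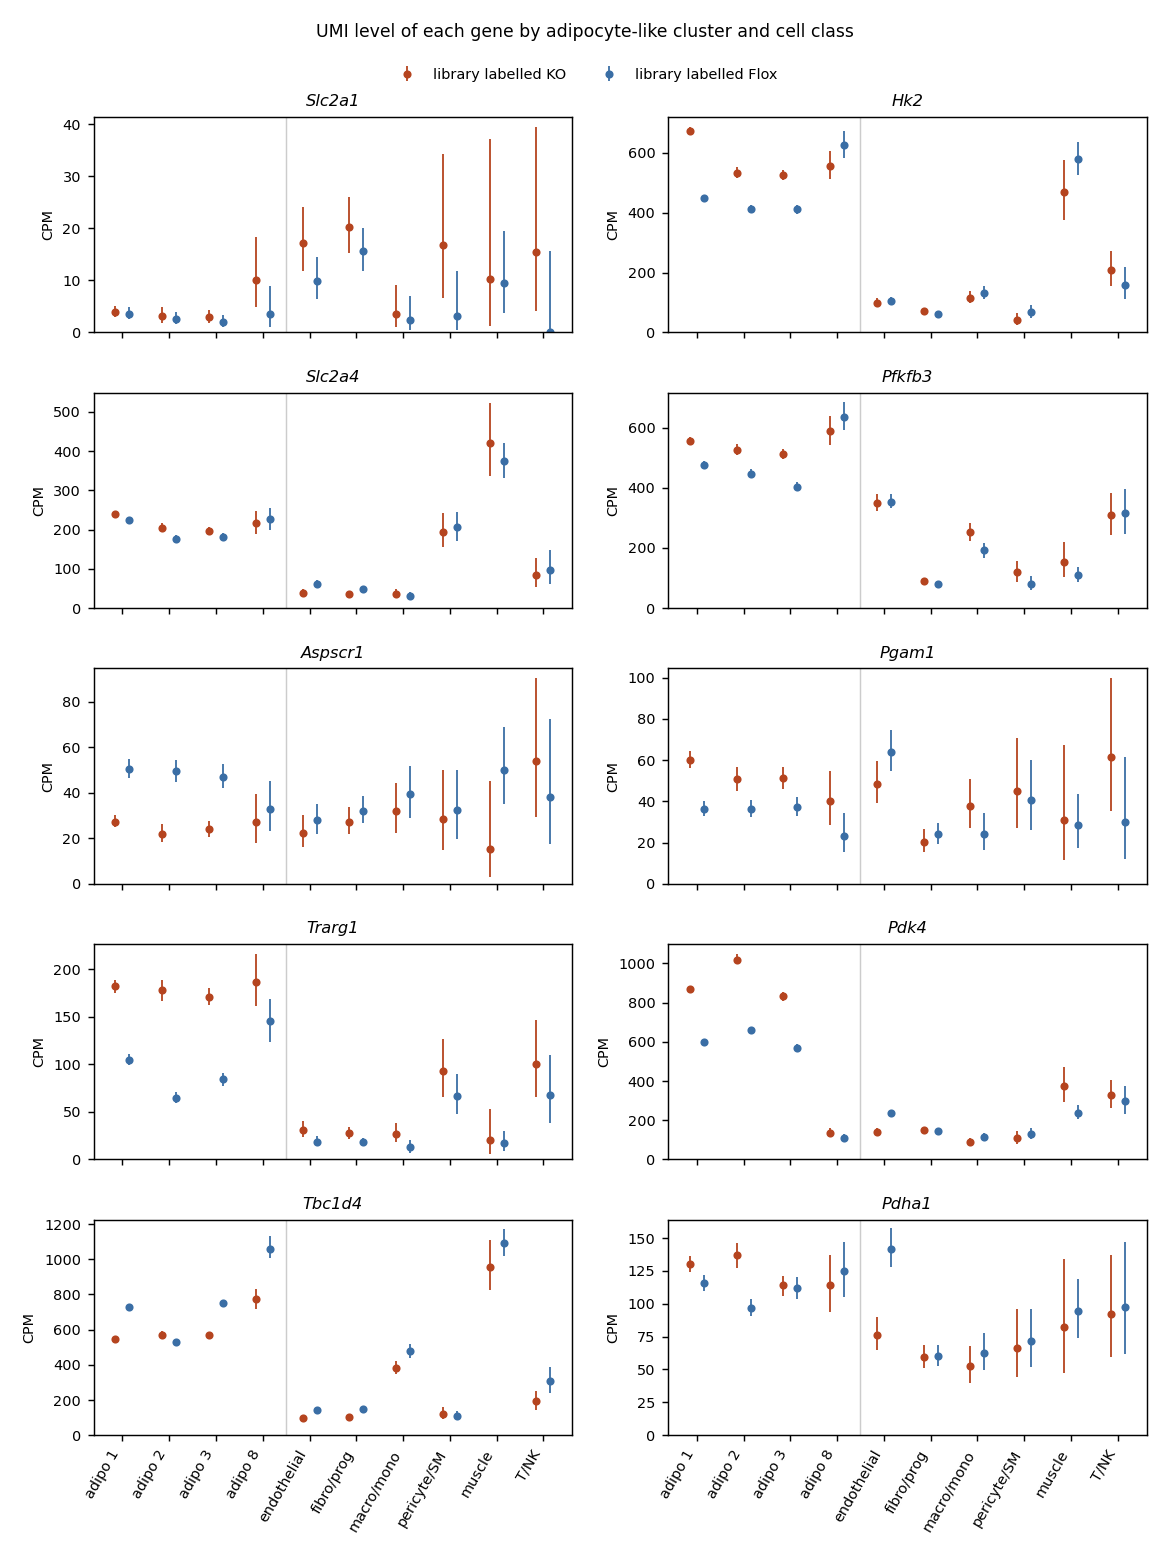
UMI level (CPM) of each of the 10 genes in the 4 adipocyte-like clusters (left of the grey line) and in 6 other classes (right), for the library labelled KO (red) and the library labelled Flox (blue); bars are exact Poisson 95% intervals for counting error. Trarg1 sits between 171 and 187 CPM in the KO clusters and between 64.9 and 146 CPM in the Flox clusters, and Aspscr1 lies lower in KO in the same clusters.

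Among the regulators of GLUT4 traffic, Trarg1 and Aspscr1 differed between the libraries by more than 1.5-fold, in opposite directions. Trarg1 (chr11:76679808-76698664, mm10, plus strand) encodes a small membrane protein of adipocytes that travels with GLUT4 vesicles and promotes the response to insulin. It stood at 178 CPM (5234 UMIs) in adipocyte-like nuclei labelled KO and at 89.0 CPM (2506 UMIs) in those labelled Flox, a ratio of 2.00 (1.91 to 2.10). Aspscr1 (chr11:120672973-120709447, mm10, plus strand) encodes TUG, a tether that keeps GLUT4 vesicles inside unstimulated cells. It stood at 25.4 CPM (747 UMIs) in KO and at 48.8 CPM (1373 UMIs) in Flox, a ratio of 0.521 (0.476 to 0.57). Trarg1 was thus higher and Aspscr1 lower in KO.

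The level of Trarg1 was even across the KO clusters and uneven across the Flox clusters. In clusters 1, 2, 3 and 8 it was 182, 178, 171 and 187 CPM in KO, against 105, 64.9, 84.3 and 146 CPM in Flox. The log2 ratios were 0.79, 1.45, 1.02 and 0.36, so the gap was widest in cluster 2 and narrowest in cluster 8. Aspscr1 had 27.4, 22.0, 24.0 and 27.0 CPM in the KO clusters, against 50.7, 49.6, 47.2 and 32.9 CPM in Flox. Its log2 ratios were -0.89, -1.17, -0.97 and -0.28, and in cluster 8, with 27 UMIs in KO and 38 in Flox, the interval of the ratio (0.481 to 1.38) held 1. Counted against each other, adipocyte-like nuclei had 7.01 Trarg1 UMIs per Aspscr1 UMI in KO and 1.83 in Flox. That quotient ran from 6.62 to 8.08 over the KO clusters and from 1.31 to 4.42 over the Flox clusters. In cluster 8 it was 6.93 in KO, from 187 and 27 UMIs, and 4.42 in Flox, from 168 and 38 UMIs, and no interval was computed for it. The quotient is not corrected for transcript length and is read between libraries only.

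Aspscr1 was higher in adipocytes than in the rest of the tissue in Flox, and not detectably so in KO. Adipocyte-like nuclei had 0.936 times (0.798 to 1.10) the Aspscr1 level of all other nuclei in KO and 1.48 times (1.31 to 1.68) in Flox. In the other classes Aspscr1 had ratios of 0.802 (0.535 to 1.18) in endothelial-like, 0.851 (0.632 to 1.14) in fibroblast/progenitor-like and 0.822 (0.517 to 1.28) in macrophage/monocyte-like nuclei. The interval held 1 in each of these 3 classes. T/NK-like nuclei had a ratio of 1.38 (0.568 to 3.69). Over all nuclei that were not adipocyte-like, Aspscr1 stood at 27.2 CPM in KO and 32.9 CPM in Flox, a ratio of 0.825 (0.685 to 0.99). This pool differed in makeup between the libraries: skeletal muscle-like nuclei, 77 in KO and 314 in Flox, held 3 and 37 of its Aspscr1 UMIs. They had 15.4 CPM in KO and 49.9 CPM in Flox. The part of makeup in the pooled ratio was not tested. Trarg1, in contrast, was higher in KO in endothelial-like (31.2 and 18.9 CPM) and fibroblast/progenitor-like nuclei (27.7 and 18.2 CPM). These levels lay far below the 178 and 89.0 CPM of adipocyte-like nuclei, and Adipoq in endothelial-like nuclei stood at 99.9 and 137 CPM.

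Tbc1d4 (chr14:101442360-101609191, mm10, minus strand) encodes AS160, a Rab GTPase-activating protein that holds GLUT4 vesicles back until it is phosphorylated after insulin. It stood at 565 CPM in adipocyte-like nuclei of KO and at 686 CPM in those of Flox, a ratio of 0.824 (0.807 to 0.841). Clusters 1, 3 and 8 had log2 ratios of -0.41, -0.40 and -0.46, whereas cluster 2 had 572 CPM in KO and 527 CPM in Flox, a log2 ratio of 0.12. The value for the whole class therefore depended on its makeup, with -0.17 without cluster 1 and -0.42 without cluster 2. Skeletal muscle-like nuclei, which had 958 CPM in KO and 1090 CPM in Flox, and adipocyte-like cluster 8, with 772 and 1060 CPM, headed the order of levels in each library with overlapping intervals. Macrophage/monocyte-like nuclei also carried the transcript, at 384 CPM in KO and 478 CPM in Flox, against 98.3 and 141 CPM in endothelial-like nuclei.

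Among the glycolytic members, Hk2, Pfkfb3 and Pgam1 were each higher in the library labelled KO over all adipocyte-like nuclei. Hk2 (chr6:82725025-82774454, mm10, minus strand) encodes hexokinase 2, which traps glucose in the cell as glucose 6-phosphate. It stood at 602 CPM in adipocyte-like nuclei of KO and at 435 CPM in those of Flox, a ratio of 1.38 (1.35 to 1.42). Cluster 1 had 673 CPM in KO and 448 CPM in Flox, clusters 2 and 3 had 533 and 526 CPM in KO against 413 and 411 CPM in Flox, and cluster 8 had 557 CPM in KO and 628 CPM in Flox. Hk2 was thus higher in KO in clusters 1, 2 and 3 and lower in cluster 8. Without cluster 1 its log2 ratio was 0.31, against 0.47 for the class. In skeletal muscle-like nuclei, which use the same hexokinase, Hk2 stood at 469 CPM in KO and 580 CPM in Flox.

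Pfkfb3 (chr2:11471433-11554077, mm10, minus strand) encodes an enzyme that makes fructose 2,6-bisphosphate, an activator of glycolysis. It stood at 539 CPM in adipocyte-like nuclei of KO and at 455 CPM in those of Flox, a ratio of 1.18 (1.16 to 1.21). The log2 ratios of clusters 1, 2 and 3 were 0.22, 0.24 and 0.34, and that of cluster 8 was -0.12. Outside adipocytes, endothelial-like nuclei had the highest level, with 350 CPM in KO and 354 CPM in Flox, and T/NK-like nuclei followed with 308 and 315 CPM and overlapping intervals. In neither class did the libraries differ by more than counting error.

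Pgam1 (chr19:41911923-41918660, mm10, plus strand) encodes phosphoglycerate mutase 1. It stood at 55.2 CPM (1622 UMIs) in adipocyte-like nuclei of KO and at 36.1 CPM (1015 UMIs) in those of Flox, a ratio of 1.53 (1.41 to 1.66). All 4 clusters were higher in KO, with log2 ratios of 0.72, 0.49, 0.46 and 0.77 in clusters 1, 2, 3 and 8. Adipocyte-like nuclei had 1.58 times the Pgam1 level of other nuclei in KO and 0.979 times (0.866 to 1.11) in Flox, where the 2 sets did not differ beyond counting error. The gene lay near the 1.5-fold size: it was under it in 4 of 16 alternatives, the lowest being a log2 ratio of 0.49 without cluster 1. Those of the 16 that changed only the UMI minimum could not move it. The annotation holds the pseudogenes Pgam1-ps1 and Pgam1-ps2, so the assignment of its reads is uncertain.

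At the pyruvate dehydrogenase complex, the gene of a kinase that inactivates it differed more than the gene of a subunit. Pdk4 (chr6:5483351-5496309, mm10, minus strand) encodes pyruvate dehydrogenase kinase 4, which inactivates the pyruvate dehydrogenase complex and is known to be induced by fasting and fatty acids. It stood at 867 CPM in adipocyte-like nuclei of KO and at 589 CPM in those of Flox, a ratio of 1.47 (1.44 to 1.5). Pdha1 (chrX:160122209-160138413, mm10, minus strand) encodes the E1 alpha subunit of that complex. It stood at 126 CPM in KO and at 109 CPM in Flox, a ratio of 1.16 (1.10 to 1.21), and its log2 ratio was 0.49 in cluster 2 but 0.02 in cluster 3. Thinning to 1000 UMIs gave Pdha1 a log2 ratio of 0.09, against 0.21 here, and leaving out cluster 2 gave 0.11.

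Pdk4 also set cluster 8 apart from the other adipocyte-like clusters, as a description, since the clusters were drawn with all genes. Clusters 1, 2 and 3 had 871, 1020 and 832 CPM in KO and 597, 659 and 569 CPM in Flox. Cluster 8 had 136 CPM in KO and 108 CPM in Flox, a ratio of 1.26 (0.977 to 1.61). Endothelial-like nuclei had 141 CPM in KO and 235 CPM in Flox, and macrophage/monocyte-like nuclei 91.1 and 116 CPM. Adipoq in cluster 8 stood at 623 CPM in KO and 466 CPM in Flox, above the other 3 clusters. In thinned nuclei, 12.3% of cluster 8 in KO and 8.96% in Flox had a Pdk4 UMI, against 46.0% to 54.6% in KO and 38.8% to 43.1% in Flox in the other 3 clusters.

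**Figure D2:**
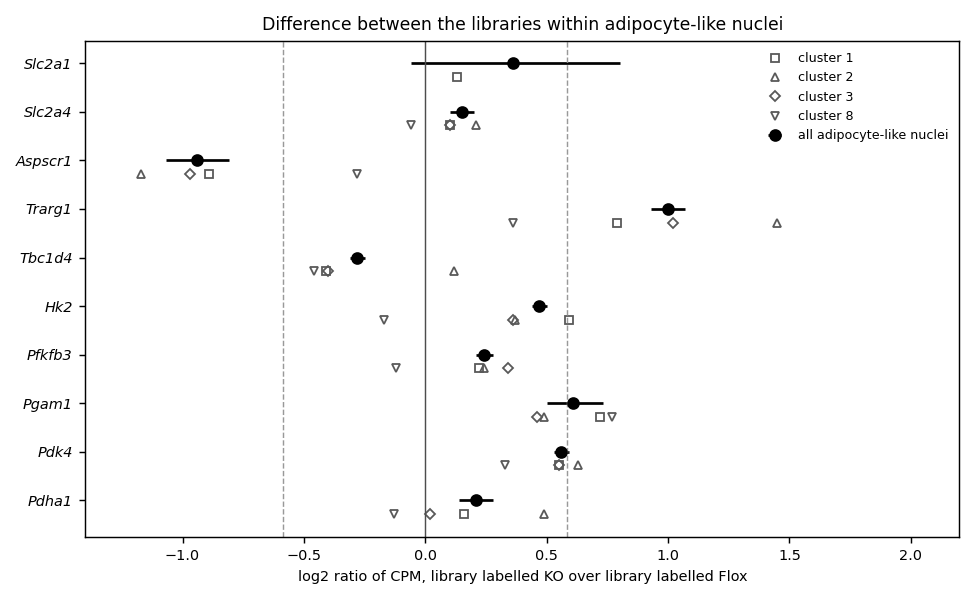
Log2 ratio of CPM, KO over Flox, for each gene in all adipocyte-like nuclei (filled, with the exact binomial 95% interval) and in each adipocyte-like cluster with at least 50 UMIs of the gene (open); dashed lines mark 1.5-fold. Trarg1 and Pgam1 lie beyond the upper line and Aspscr1 beyond the lower one, and triangles pointing down (cluster 8) lie below 0 for Slc2a4, Aspscr1, Tbc1d4, Hk2, Pfkfb3 and Pdha1.

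Taken as a list in adipocyte-like nuclei, 2 of the 10 members were at least 1.5-fold higher in KO (Trarg1 and Pgam1) and 1 at least 1.5-fold lower (Aspscr1). Of all 12322 genes counted with at least 50 UMIs, 2.08% lay 1.5-fold or more above and 8.37% lay 1.5-fold or more below. Among the 7284 genes with at least 1000 UMIs these shares were 1.21% and 2.13%. At 2-fold 1 member was higher (Trarg1) and 0 were lower, against 0.446% and 2.37% of counted genes. The median log2 ratio of the members was 0.30, with 8 above 0, and that of all counted genes was -0.06, with 5th and 95th percentiles at -0.75 and 0.43. The members were chosen with earlier results of these data known, so these counts describe them and support nothing. By cluster, cluster 1 had 3 members 1.5-fold higher (Trarg1, Hk2 and Pgam1) and 1 lower (Aspscr1), against 3.65% and 6.33% of its counted genes, and a member median of 0.19. Cluster 2 had 2 higher (Trarg1 and Pdk4) and 1 lower (Aspscr1), against 4.01% and 9.03%, and a median of 0.37. Cluster 3 had 1 higher (Trarg1) and 1 lower (Aspscr1), against 3.25% and 6.28%, and a median of 0.34. In cluster 8, 1 member was higher (Pgam1) and 0 were lower, against 5.7% and 5.77%, its median was -0.12, and 3 of 9 counted members were above 0.

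Over all adipocyte-like nuclei, the share with a transcript had the same direction after each nucleus had been thinned to 1000 UMIs. Shallower nuclei were left out: 502 adipocyte-like nuclei in KO and 99 in Flox, and 236 and 530 endothelial-like nuclei. Of all nuclei that were not adipocyte-like, 719 in KO and 1471 in Flox were left out. A Trarg1 UMI was found in 16.4% (15.6 to 17.2) of adipocyte-like nuclei in KO and 8.32% (7.75 to 8.92) in Flox. Endothelial-like nuclei, in which the gene is not known to act, gave 2.40% in KO and 0.835% in Flox. An Aspscr1 UMI was found in 2.71% (2.36 to 3.10) in KO and 5.09% (4.64 to 5.57) in Flox, against 2.54% (1.97 to 3.22) in KO and 3.15% (2.61 to 3.77) in Flox of all other nuclei. The intervals of adipocyte-like and other nuclei overlapped in KO and did not in Flox. A Pgam1 UMI was found in 5.12% of adipocyte-like nuclei in KO and 3.51% in Flox, against 4.80% and 5.32% in endothelial-like nuclei. Shares for Hk2 were 44.8% in KO and 35.2% in Flox, for Pdk4 47.0% and 40.0%, for Pfkfb3 38.4% and 33.3%, and for Tbc1d4 40.3% and 45.8%. Unthinned, Trarg1 was found in 38.9% in KO and 20.7% in Flox and Aspscr1 in 8.13% and 13.6%, at median depths of 3100 and 2761 UMIs in adipocyte-like nuclei and 1596 and 1272.5 UMIs in endothelial-like nuclei.

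Outside adipocytes, endothelial-like nuclei were the class in which most members were lower in KO. There Pdha1 stood at 76.5 CPM in KO and 142 CPM in Flox, Pdk4 at 141 and 235 CPM, and Slc2a4 at 39.0 and 61.0 CPM. In all, 3 members lay 1.5-fold or more below and 2 (Slc2a1 and Trarg1) 1.5-fold or more above, against 11.0% and 2.84% of the 8826 genes counted in that class, and the median was -0.36 (-0.06 for all genes). Of the adipocyte markers in the same nuclei, Adipoq had 99.9 CPM in KO and 137 CPM in Flox. Plin1, which coats lipid droplets, had 134 and 188 CPM. Ucp1 had 16.7 CPM in KO and 43.5 CPM in Flox. The 12 adipocyte markers together summed to 13300 CPM in KO and 13700 CPM in Flox, with 10 of 12 lower in KO. The 5 erythroid markers summed to 7050 CPM in KO and 1360 CPM in Flox, and the 10 skeletal muscle markers to 134 and 421 CPM. The part of any of these markers in the result was not tested. With doublets kept, the log2 ratio of Pdk4 was -0.04 in place of -0.73, that of Pdha1 -0.43 in place of -0.89, that of Pgam1 -0.02 in place of -0.40 and that of Hk2 0.33 in place of -0.06.

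In the other classes few members were 1.5-fold apart. Fibroblast/progenitor-like nuclei had 1 member at least 1.5-fold higher (Trarg1) and 0 lower, against 2.91% and 3.63% of 10011 genes, and their median was 0.04. Macrophage/monocyte-like nuclei had 1 of 8 counted members higher (Pgam1, with 42 UMIs in KO and 30 in Flox), against 3.97% higher and 6.2% lower of 7132 genes. Pericyte/smooth muscle-like nuclei had 1 of 7 lower (Hk2, 17 and 42 UMIs), against 5.44% higher and 7.17% lower of 4463 genes, and T/NK-like nuclei 1 of 4 (Tbc1d4, 192 and 306 CPM), against 9.68% higher and 9.08% lower of 2675 genes. The intervals of the Pgam1 and Hk2 ratios held 1. Tbc1d4 was lower in KO in adipocyte-like, endothelial-like, fibroblast/progenitor-like, macrophage/monocyte-like and T/NK-like nuclei, with log2 ratios from -0.66 to -0.28, and stood at 0.14 in pericyte/smooth muscle-like nuclei, where the interval of the ratio (0.751 to 1.61) held 1.

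**Figure D3:**
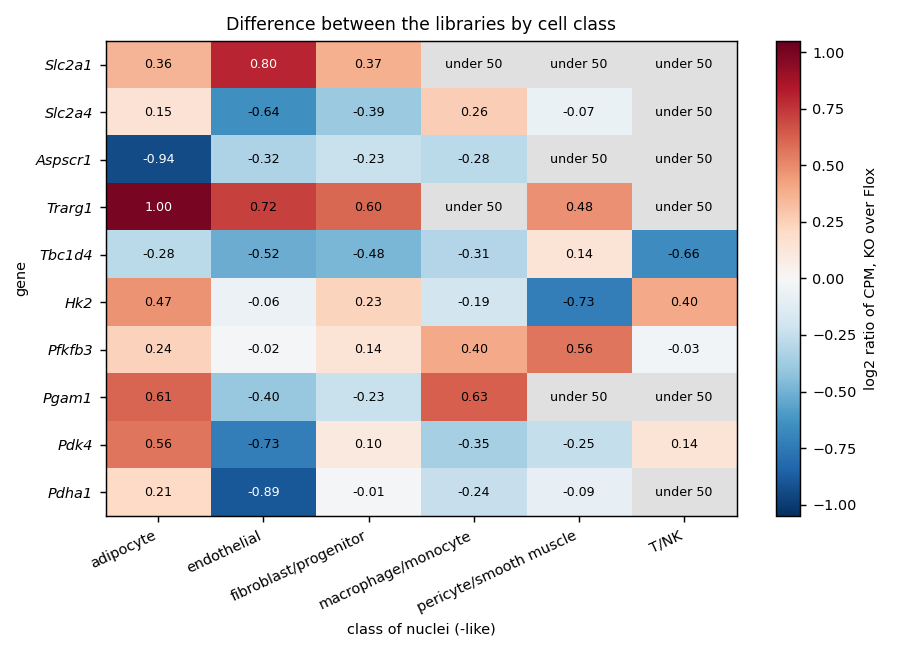
Log2 ratio of CPM, KO over Flox, for each gene (rows) in the 6 classes that held at least 100 nuclei per library (columns); grey cells had under 50 UMIs over both libraries. The Pdk4 row runs from 0.56 in adipocyte-like to -0.73 in endothelial-like nuclei, while Trarg1 is above 0 in the 4 classes where it is shown.

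Other genes of glucose use were described by list. Of 113 other genes in 7 lists, 104 were counted in adipocyte-like nuclei, 1 was higher in KO by 1.5-fold or more, 3 were lower by as much, and their median log2 ratio was -0.03. Over all counted genes these shares were 2.08% and 8.37%, with a median of -0.06. None of the 19 other GLUT4 traffic genes was 1.5-fold apart: their median was -0.08, 15 of 19 were below 0, and the furthest were Tbc1d1, the muscle relative of Tbc1d4 (-0.42), Myo1c, a motor of GLUT4 vesicles (-0.40), and Stxbp3, which binds the fusion protein syntaxin 4 (-0.33). Lnpep, the aminopeptidase that shares the GLUT4 vesicle, was picked out after its values were seen. It stood at 584 CPM in KO and 512 CPM in Flox, the highest log2 ratio of the list (0.19). The 15 insulin signalling genes had a median of -0.06 and 0 beyond 1.5-fold, with Irs2, an insulin receptor substrate, at 0.29, the kinase gene Akt1 at -0.29 and Mtor at -0.23.

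Among the other transporters listed, 6 of 8 were counted and the median was -0.28. Slc2a3 (GLUT3) stood at 204 CPM in KO and 171 CPM in Flox. Slc2a12 and Slc2a13 had log2 ratios of -0.26 and -0.31, and the intervals of their ratios (0.695 to 1.01 and 0.549 to 1.18) held 1. Slc2a13 had only 53 UMIs in KO and 63 UMIs in Flox, so the median shows no shift of the list. Slc2a5, a fructose transporter picked out after its values were seen, stood at 0.579 CPM in KO and 1.42 CPM in Flox. The 20 other glycolysis and lactate genes counted had a median of 0.02: Hk1, the housekeeping hexokinase, was lower (4.87 CPM in KO and 7.42 CPM in Flox), Pfkl, the liver-type phosphofructokinase, had 0.40 and Pfkfb4 -0.47. The 12 other pyruvate entry genes had a median of 0.06 with 0 beyond 1.5-fold. Pdp2, the phosphatase that opposes the pyruvate dehydrogenase kinases, had 852 UMIs in KO and 563 UMIs in Flox (0.54), while Dld, the E3 subunit, had a log2 ratio of 0.24 and Pdpr, a regulator of the phosphatase, -0.22. Both the kinase Pdk4 and the phosphatase Pdp2 were thus higher in KO.

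The 20 glycogen and pentose phosphate genes had a median of -0.03. Gys2, the liver-type glycogen synthase, was lower, at 9.87 CPM in KO and 16.6 CPM in Flox, while Ppp1r3d, a glycogen-targeting subunit of protein phosphatase 1, had a log2 ratio of 0.52 and G6pdx, the first enzyme of the pentose phosphate pathway, 0.49. The 12 transcription regulators had a median of 0.19, with 9 above 0. Nr4a1, an immediate early nuclear receptor, was 1.5-fold higher at 32.6 CPM in KO and 19.6 CPM in Flox, and Myc and Srebf1 had log2 ratios of 0.40 and 0.35.

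**Figure D4:**
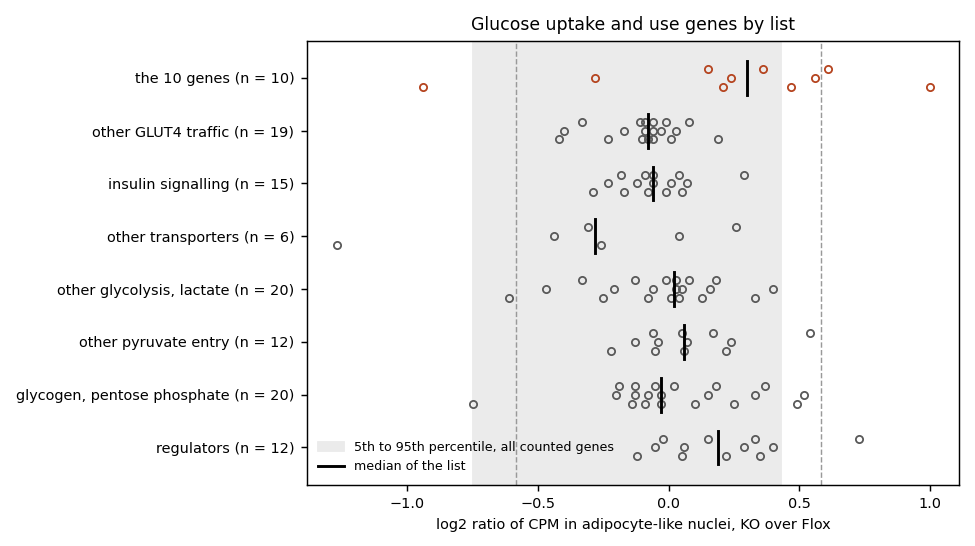
Log2 ratio of CPM in adipocyte-like nuclei, KO over Flox, for the 10 genes (red) and each gene of 7 other lists (grey), with list medians (bars), 1.5-fold (dashed lines) and the 5th to 95th percentile of all counted genes (shading). The medians of the other lists lie between -0.28 and 0.19 and that of the 10 genes at 0.30.

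Genes with the most similar pattern were sought over 21 sums of UMIs (adipocyte-like clusters and other classes in each library), among 10081 genes, by Pearson correlation of log2(CPM + 1). The points share libraries and depth, so the values are a description. The closest to Hk2 was Mlxipl, the glucose-sensing factor ChREBP (r = 0.957), and the closest to Pdk4 was Etfdh, a dehydrogenase of fat oxidation (0.958). Slc2a4 was closest to Dag1, dystroglycan (0.934), Tbc1d4 to Ank (0.937), Pfkfb3 to Cnst (0.935), Pdha1 to Pyurf (0.909) and Trarg1 to Uck1 (0.889). The closest genes to Pgam1 were Atp5mpl (0.82), Cyc1 (0.817) and Cox17 (0.786). Aspscr1 had weaker matches, Nsd1 (0.749), Psmd7 of the proteasome (0.723) and Farsa (0.708), and Slc2a1 matched Hras at 0.778. Between members, Hk2 and Tbc1d4 were closest (0.896), and Aspscr1 had values between -0.278 and 0.138 with the other 9.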

How the data were processed

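Nuclei from brown fat of mice aged 4 weeks gave 2 libraries, 1 per genotype, made with 10x 3' v3 chemistry and 8000 nuclei targeted, per the labels' protocols. The deposited values are UMI counts per gene and barcode that the authors made with Cell Ranger, whose version is 5.0.0 per the file headers. The build, mm10, is per the submitters' processing notes. How introns were handled, nuclei called and genes annotated is not stated in the sources used here.

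Barcodes with fewer than 200 genes or over 10% mitochondrial UMIs were removed (129 in KO, 99 in Flox), then the highest Scrublet scores at 0.8% per 1000 barcodes (1331 and 2060). Counts were scaled to 10000 and logged. With 2000 variable genes, clipped at 10 after scaling, 30 principal components, 15 neighbours and Leiden resolution 0.5, 15 clusters of at least 20 nuclei were found and compared with 16 marker lists (at least 5 markers 2-fold above the median cluster). Cluster 13 (32 nuclei in KO, 52 in Flox) stayed unnamed and counts among nuclei that are not adipocyte-like. UMIs were summed per class and library. Ratios used 0.5 added UMI and genes with at least 50 UMIs. Intervals were exact Poisson, exact binomial and Clopper-Pearson at 95%. Genes were called at 1.5-fold.

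Members, lists and marker lists were chosen with earlier results of these data known. Named were the 10 members, Nfe2l1, up to 3 genes of each other list with the largest log2 ratio either way (at least 100 UMIs), and the 3 genes most like each member among genes with at least 500 UMIs, over sums of at least 100000 UMIs. Ucp1, Adipoq, Plin1, Lnpep and Slc2a5 were added after values were seen. Aldoa, a symbol held by more than 1 gene ID, was left out. Gene positions came from GENCODE vM21. The calls were tested on simulated data drawn from the adipocyte-like sums: of 12335 genes, 100 of 100 changed 3-fold and 99 of 100 changed 2-fold were called at 1.5-fold, as were 98 of 12135 unchanged genes, and 95.6% of intervals held the true ratio. Data drawn from these sums carry no measured spread between mice or libraries, so the figures cannot show how the calls fare with it. Alternatives changed the filters, doublets, resolution (0.3 and 1.0), class naming, scaling (TMM in edgeR 4.0.16), summing, thinning, makeup, minimum and size. Tools were scanpy 1.11.5, leidenalg 0.10.2, igraph 0.11.9, scikit-learn 1.9.0, NumPy 2.4.6, SciPy 1.17.1, pandas 2.3.3, matplotlib 3.10.9 and Python 3.11.15.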

Additional observations from a re-analysis of the deposited data

Results flagged for a closer look

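Several members had ratios on opposite sides of 1 in adipocyte-like nuclei and in another class or cluster, with both intervals clear of 1. None of these differences was tested, since there was 1 library per genotype. In endothelial-like nuclei Pdha1 had a log2 ratio of -0.89 (0.21 in adipocyte-like nuclei), Pdk4 -0.73 (0.56), Slc2a4 -0.64 (0.15) and Pgam1 -0.40 (0.61). With doublets kept, the endothelial-like log2 ratios of Pdha1, Pdk4 and Pgam1 were smaller in size, as given above, so they depend on that filter. Slc2a4 was also lower in fibroblast/progenitor-like nuclei of KO, with a log2 ratio of -0.39. In these nuclei the 10 skeletal muscle markers summed to 134 CPM in KO and 375 CPM in Flox, and the 12 adipocyte markers to 2960 and 3700 CPM. The part of either in the Slc2a4 ratio was not tested. Within adipocyte-like nuclei, Tbc1d4 had 0.12 in cluster 2 (-0.28 in the class) and Hk2 -0.17 in cluster 8 (0.47 in the class).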

How the results depend on the processing

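No paired analysis was possible because each genotype had 1 library. Over 16 alternatives none of the 10 members changed the sign of its log2 ratio in adipocyte-like nuclei. The 16 include a minimum of 20 UMIs and no minimum, which by construction leave the ratios of all 10 members as they were. Trarg1 ran from 0.84 to 1.15, Aspscr1 from -1.02 to -0.88 and Pgam1 from 0.49 to 0.67. Members at least 1.5-fold higher numbered 1 with the filter at 500 genes and 5% mitochondrial UMIs, where Pgam1 had 0.57, and 1 without adipocyte-like cluster 1, in place of 2. They numbered 3 with TMM factors and with classes from marker scores, where Pdk4 had 0.62 and 0.65. The highest log2 ratio of Slc2a1 over the alternatives was 0.8 and that of Hk2 0.6, both past 1.5-fold, while Pgam1 was under it in 4. An unchanged count therefore need not hold the same members. At 2-fold, 1 member was apart, 1 higher and 0 lower, as the larger size sets. With a minimum of 20 UMIs, 8 pathway genes were apart in place of 4, as more genes entered. Of 160 single ratios in adipocyte-like nuclei, 137 stayed within counting error and 23 moved. The 137 include the ratios under the changed UMI minimum, which could not move. With doublets kept, 7 of 39 ratios in other classes moved, and the cause was not tested. Without thinning, 4 of the share ratios in adipocyte-like nuclei moved and 6 did not. The depth of Slc2a1 in adipocyte-like nuclei and of all members in T/NK-like, pericyte/smooth muscle-like and smaller classes limits what can be told apart there.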

Other observations

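Slc2a4, Aspscr1, Trarg1 and Nfe2l1 all lie on chromosome 11. Of the counted genes beside them, 2 on each side of each, 2 were 1.5-fold apart, both lower in KO. Over all genes counted in adipocyte-like nuclei, 2.08% lay 1.5-fold or more above and 8.37% as far below, so the count is a description only. Beside Trarg1, Abr had a log2 ratio of -0.59 (189 UMIs in KO and 272 in Flox in adipocyte-like nuclei), while Timm22 (0.13), Gosr1 (0.03) and Cpd (0.01) were near 0. Before Aspscr1, Mafg, which encodes a small MAF protein that pairs with factors of the NFE2L family, had 2663 UMIs in KO and 4137 in Flox (-0.70), while Sirt7 (-0.14), Cenpx (-0.03) and Lrrc45 (-0.07) were near 0. Beside Slc2a4, Ybx2 and Eif5a had 0.17 and 0.12. On the other strand Aspscr1 overlaps Gm17178, Hk2 overlaps Gm17034, Pfkfb3 overlaps Gm10851, Pdha1 overlaps Map3k15, and Slc2a1 overlaps Gm12867 and Gm12868, so reads shared with these genes cannot be told apart if strand was not used in counting. On the same strand Tbc1d4 overlaps Gm34417, Pfkfb3 overlaps Gm37975 and Slc2a1 overlaps Mir1957a, and the use of strand does not separate these.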
